A study of Capra hircus with 2 samples.

Results

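miR-1468 was 1 of 1329 miRNA names read in small RNA libraries of goat testicular cells. Its entries were found by name, as those whose miRNA name without species, copy number and arm is miR-1468. The CD49f-positive library held 2 such entries of 2599, the CD49f-negative library 1 of 2338. The miRNA was chosen by the ratio of its reads between these libraries, so that ratio is a description here and has no test. The testicular cells came from 3 testes of Saanen dairy goats 5 months old. They were freed with collagenase, DNase and a product labelled decomposition enzyme, held on a dish overnight so that Sertoli and myoid cells would attach, and the unattached cells were sorted with magnetic beads. The CD49f-positive and CD49f-negative groups thus share breed, age, digestion and plating and differ in the surface marker alone, as far as the labels say. Each group is represented by 1 library here, and whether it pools the 3 goats is not stated, so no difference below has a replicate check.

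A miRNA is cut from a hairpin transcript by Drosha in the nucleus and Dicer in the cytoplasm, and 1 strand of the resulting duplex is kept by an Argonaute protein. Bases 2 to 8 of that strand, the seed, pair with messenger RNAs, which are then repressed or degraded. CD49f is integrin alpha-6, a laminin receptor chain used to enrich spermatogonial stem cells, although other cells that sit on a basement membrane carry it too. Its messenger RNA is not measured in small RNA libraries. The miR-1468 gene lies on the X chromosome, most of whose protein-coding genes are silenced in male germ cells during meiosis. In bulk RNA, fewer cells of a type and less RNA per cell cannot be told apart.

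The listed sequences are shown with the seed in capitals, since they show which arm was read and that both libraries list the same 5p molecule.
miR-1468-5p, both libraries: cTCCGTTTgcctgttttgctga
miR-1468-3p, CD49f-positive only: aGCAAAATaagcaaatggaaaa

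Both are 22 bases long and were listed with 0 mismatches. The 5p sequence equals the mature cattle miR-1468 that the files give as its reference. The 3p name carries the mark that the column description uses for arms not among the reported mature miRNAs. The seed TCCGTTT stood at bases 2 to 8 of no other listed sequence in either library, in 0 other named and 0 unnamed entries, and in 0 of the reference miRNAs of other names. miR-1468-5p therefore had no listed seed family member with which its reads could be compared.

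The hairpin is placed on the plus strand of chromosome X in the deposited files, whose genome build is not given in the sources used here. Its 94 bases lie whole within the 97-base cattle hairpin listed as its reference, and the entry names miR-1468 hairpins of 5 species (cattle, pig, horse, human and orangutan). In the fold given by the authors the hairpin has 30 base pairs and a terminal loop of 18 bases. Of the 22 bases of miR-1468-5p 20 are paired, with bases 1 and 11 unpaired. The 3p sequence extends 2 bases past the 5p start, and the 5p sequence 2 bases past the 3p start, the offset that Drosha and Dicer cuts typically leave. Its GC content of 39.4% was below the median of 48.2% over 480 known hairpins placed on the genome, and 81 of these had less. The folding energy of -39.2 kcal/mol was near the median of -37.9. Set against length and GC content it gave an index of 1.1, above the median of 0.8, and 40 hairpins had a higher one. The RefSeq gene table of assembly ARS1.2 lists the gene as MIR1468, with the same length of 94 bases. No other gene of that table overlaps it.

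CD49f-positive cells gave 3656 reads of miR-1468-5p, CD49f-negative cells 390. The former library was 2.67 times deeper, with 8196507 reads assigned to named miRNAs against 3064462. At the depth of the CD49f-negative library, the CD49f-positive share would correspond to 1367 reads. In reads per 1000000 named miRNA reads (RPM), miR-1468-5p stood at 446 in CD49f-positive cells (95% Clopper-Pearson interval 432 to 461) and at 127 in CD49f-negative cells (115 to 141). The intervals do not overlap, but they cover counting error only, because reads amplified by PCR without molecular identifiers are not independent molecules. The share was 3.50-fold higher in CD49f-positive cells (3.16 to 3.90), a log2 ratio of 1.81 (1.66 to 1.96). By reads, miR-1468-5p was at rank 66 of the 1455 arms detected in CD49f-positive cells and at rank 129 of the 1291 detected in CD49f-negative cells.

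The other arm of the hairpin was almost unread. miR-1468-3p had 1 of 3657 hairpin reads in the CD49f-positive library, or 0.0273% (0.000692 to 0.152). It had 0 of 390 in the CD49f-negative library. A floor of 3 reads is 0.769% of those reads, so the level of the CD49f-positive library was not detectable there. No ratio is given for this arm, since both counts lie at or under the floor of 3 reads. Of the 101 known hairpins with at least 1000 CD49f-positive reads, the less used arm held a median of 0.335% of reads, and 78 hairpins had a larger share on that arm than miR-1468. In CD49f-negative cells 31 of 165 hairpins with at least 100 reads had no read on 1 arm, miR-1468 among them. The 5p strand was thus nearly the sole product seen, an arm use shared with many other hairpins.

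The difference in miR-1468-5p was found in each class of its reads, and its size differed between them. The single listed sequence had 2464 copies in CD49f-positive and 211 in CD49f-negative cells, or 301 and 68.9 RPM, a log2 ratio of 2.12 (1.92 to 2.34). Other reads with no mismatch, which differ from it in their ends, numbered 717 and 104, with a log2 ratio of 1.36 (1.07 to 1.68). Reads with at least 1 mismatch numbered 475 and 75, with a log2 ratio of 1.24 (0.89 to 1.61). The counting interval of the listed sequence lies above those of both other classes, which overlap each other. The gap between the libraries was therefore 4.36-fold for the exact mature sequence, 2.57-fold for its end variants and 2.35-fold for mismatched reads.

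**Figure D1:**
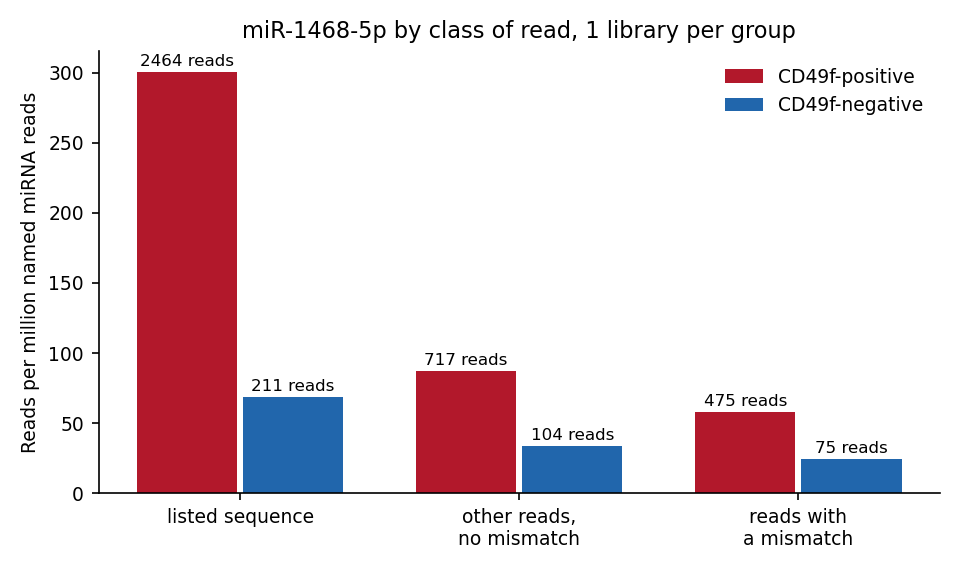
Reads of miR-1468-5p (y axis, RPM, linear from 0) in 3 classes of read (x axis), red for the CD49f-positive and blue for the CD49f-negative library, 1 library each and no error bars; raw reads are printed above the bars. The red bar is higher in each class, and the listed sequence has the widest gap, at 301 against 68.9.

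The make-up of the miR-1468-5p reads differed accordingly. The listed sequence made up 67.4% of them in CD49f-positive cells (65.8 to 68.9) and 54.1% in CD49f-negative cells (49.0 to 59.1), end variants with no mismatch 19.6% and 26.7%, and mismatched reads 13.0% (11.9 to 14.1) and 19.2% (15.4 to 23.5). A gap in mismatched reads was common to most miRNAs. The mismatched share was larger in the CD49f-negative library for 243 of 296 other arms with at least 100 reads summed over both libraries and reads in each. Its median gap was 5.60 percentage points over these arms and 6.24 for miR-1468-5p, and 129 arms had a larger one. The listed sequence could be compared for 73 other arms with 1 entry and the same sequence in both libraries. Its share was larger in CD49f-positive cells for 52 of them, by a median of 3.35 points, against 13.3 for miR-1468-5p, and 7 had a larger gap. Summed base scores per read, the authors' measure of base quality, were 745 and 769 for miR-1468-5p, and were likewise higher in the CD49f-negative library for 70 of the 73 arms. The part of these library-wide gaps in the miR-1468-5p ratio was not tested. Over reads with no mismatch in both numerator and total, its log2 ratio was 1.84 (1.68 to 2.02).

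Among 298 arms with at least 100 summed reads, miR-1468-5p had the third highest ratio, and the highest of the 229 arms with at least 50% of their reads at known hairpins. An arm was called higher or lower at a 2-fold difference with a counting interval that excludes equal shares. By that rule 6 arms, 2.01% of those compared, were higher in CD49f-positive cells, and 74, or 24.8%, were lower. As miR-1468-5p was chosen for this ratio, its place among the 6 is no finding. It was also called over reads with no mismatch, where 4 of 242 arms, 1.65%, were higher. These are 3181 of its 3656 and 315 of its 390 reads, so this is no separate check. The 5 other higher arms had 100 to 349.5 reads in all, against 4046 for miR-1468-5p. miR-1290-3p, at 349.5 reads against 0, was at least 43.6-fold higher when 3 reads per library are taken as the floor. miR-716b-5p, at 146.5 reads against 3.5, had a log2 ratio of 3.78 (2.38 to 5.67), with 87.0% and 100% of these reads mismatched. Neither had a read at a known goat hairpin, whereas all miR-1468-5p reads lay at its own.

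The arms nearest to miR-1468-5p in log2 ratio, a likeness measured over 2 libraries only, all stood below it. For miR-940-5p, with 87 reads against 13, the ratio was 1.28 (0.47 to 2.29), 0.53 away, and every one of its reads had a mismatch. For miR-450a-3p, from an X-linked cluster, it was 1.26 (0.67 to 1.96) at 163 reads against 25, and for miR-29a-5p 1.25 (0.48 to 2.22) at 92 against 14. Neither call held over reads with no mismatch, where they were at 0.33 (-1.04 to 2.21) and 0.68 (-0.13 to 1.67), and 16.1% of miR-450a-3p reads lay at known hairpins. The intervals of these 3 arms overlap that of miR-1468-5p, so their order to it is not resolved at this depth. For miR-126-5p, from a hairpin within the endothelial gene EGFL7, it was 0.99 (0.91 to 1.06) at 9691 against 1829, and for miR-450c-3p 0.94 (0.39 to 1.57) at 156 against 30. Both of these intervals lie below that of miR-1468-5p. Of these 5 arms, miR-126-5p alone had more reads than miR-1468-5p.

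**Figure D2:**
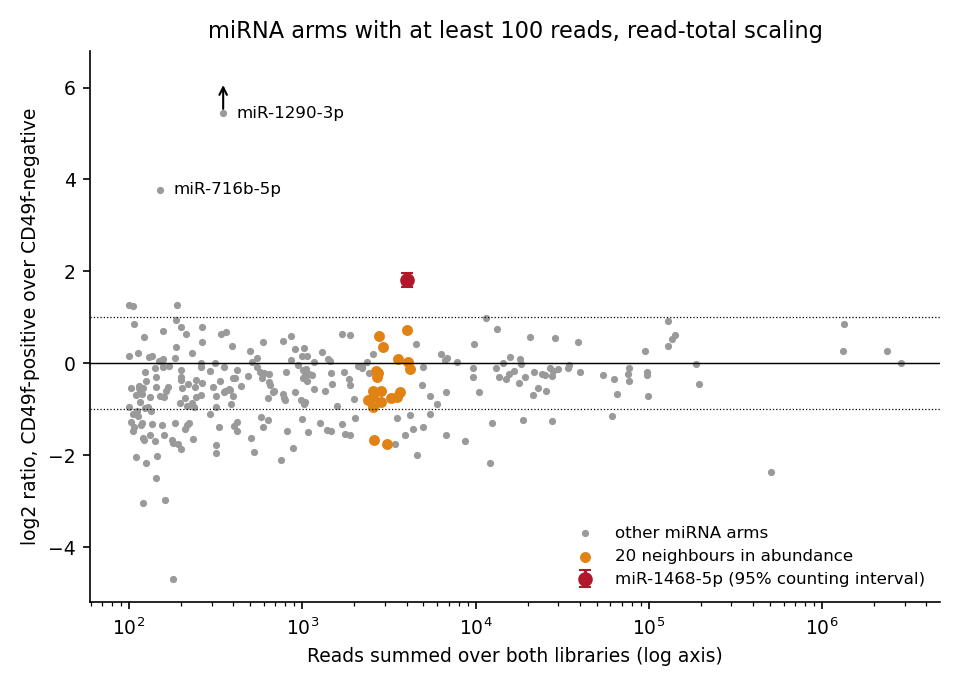
Log2 ratio, CD49f-positive to -negative (y axis), against reads summed over both libraries (x axis, log scale) for 298 arms; red is miR-1468-5p with its 95% counting interval, orange its 20 neighbours in abundance, grey the others, dotted lines mark 2-fold, and the arrow marks the lower bound of miR-1290-3p. miR-1468-5p, at 1.81 with 4046 reads, stands above each of the 20 neighbours; the 2 arms above it have 349.5 and 150 reads.

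The 20 arms of like abundance all had lower ratios than miR-1468-5p, which was chosen for its ratio, so its place above them is no finding. These neighbours were the 10 arms above and the 10 below it in mean share of both libraries. Their log2 ratios ran from -1.75 for miR-5115-5p to 0.73 for miR-224-5p, with a median of -0.61, against -0.43 for the 297 other arms compared; with TMM scaling over all arms (explained with the scalings) these medians were 0.21 and 0.39. None was called higher, against 2.01% of all arms, and 2 were lower, miR-5115-5p and miR-9-5p, against 24.8%. With TMM scaling over all arms 3 of the 20 were higher, against 16.4%, and none was lower, with miR-9-5p at -0.84. With TMM set on the 298 arms with at least 100 reads 1 was higher, miR-224-5p, against 5.7% of all arms. The same 2 were then lower as by read total, against 16.4%. The 3 arms next above in abundance, from the farthest, began with miR-452-5p, from the X-linked pair with miR-224, at 2644 reads against 932 and a log2 ratio of 0.08 (-0.02 to 0.19). For miR-9-5p, best known from neural tissue, 1183 reads against 1401 gave -1.66 (-1.78 to -1.55), and for miR-5105-3p 1696.5 against 1134 gave -0.84. Directly below came miR-716a-3p, at 1824.5 reads against 1039 and a ratio of -0.61. Over listed sequences alone the ratios of miR-5105-3p and miR-716a-3p turned to 0.87 and 0.76. For miR-2284y-5p, of a family expanded in ruminants, 1494 against 1077 gave -0.95. For miR-7-5p, a conserved miRNA known from endocrine and neural cells, 1580 against 982 gave -0.73. These 6 arms had 932 to 1401 reads in CD49f-negative cells, against 390 for miR-1468-5p, and 1183 to 2644 in CD49f-positive cells, against 3656. As only 13 of the 20 neighbours had at least 50% of their reads at known hairpins, the comparison was repeated with 20 neighbours at known hairpins: their median was -0.21, 6 were above 0, and the highest was again miR-224-5p.

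**Figure D3:**
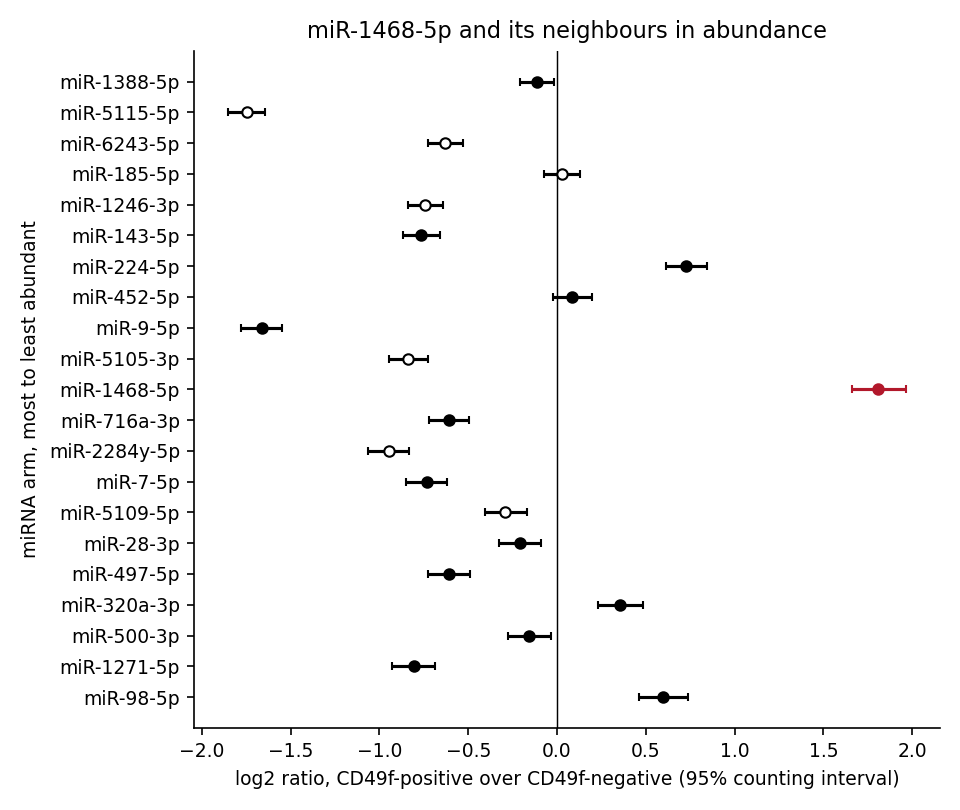
Log2 ratio, CD49f-positive to -negative (x axis), with 95% counting intervals for miR-1468-5p (red) and its 20 neighbours, from most to least abundant (y axis); filled circles mark arms with at least 50% of reads at known hairpins. The neighbours lie between -1.75 and 0.73, and miR-1468-5p at 1.81.

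The other arms of chromosome X with at least 100 reads all had lower ratios than miR-1468-5p. As it was chosen for its ratio, its place above them is a description and no finding. The files place 53 known hairpins on X, and 41 other arms with at least 100 reads come from them at least in part. Their log2 ratios had a median of -0.09 and ran from -1.42 for miR-19b-3p to 1.26 for miR-450a-3p; 19 were above 0, 1 was called higher and 4 lower, where 2.01% and 24.8% of all arms were. With TMM scaling over all arms 14 of the 41 were higher, against 16.4%, and none was lower, against 5.03%. The median turned to 0.24 or 0.73 with TMM scaling, depending on the arms it was set on. For the 33 arms with at least 50% of their reads at X, the highest ratio was 0.94. The miR-1468 hairpin stands alone: the nearest hairpins in the files, miR-98 and let-7f, lie 1168 kb away on the other strand. Both belong to the let-7 family, which is known to be high in differentiated cells. For miR-98-5p, 2219 reads against 548 gave a log2 ratio of 0.60 (0.46 to 0.74). For let-7f-5p, with 50.7% of its reads placed at X, 114021 against 27661 gave 0.62 (0.61 to 0.64). On the other side miR-223, a myeloid miRNA 1480 kb away, had 18 and 5 reads on its 3p arm, too few to compare, and miR-188, 4924 kb away, had 11 and 1 reads on its 5p arm and 6 and 12 on its 3p arm. At the same distance miR-532-5p was at -0.21 (-0.34 to -0.08) and at 0.61 with TMM over all arms, and miR-532-3p at -1.29 (-1.73 to -0.86) and -0.47. miR-222-3p, 3279 kb away, was at 0.33 (0.12 to 0.55). With TMM over all arms miR-98-5p, let-7f-5p and miR-222-3p were at 1.42, 1.44 and 1.15, and each was called higher. With TMM set on the 298 arms with at least 100 reads they were at 0.94, 0.96 and 0.67, and none was called. By that scaling 6 of the 41 X arms were higher, against 5.7% of all arms, and 1 was lower, against 16.4%. Of the 41 other X arms, miR-450a-3p alone has an interval that overlaps that of miR-1468-5p.

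**Figure D4:**
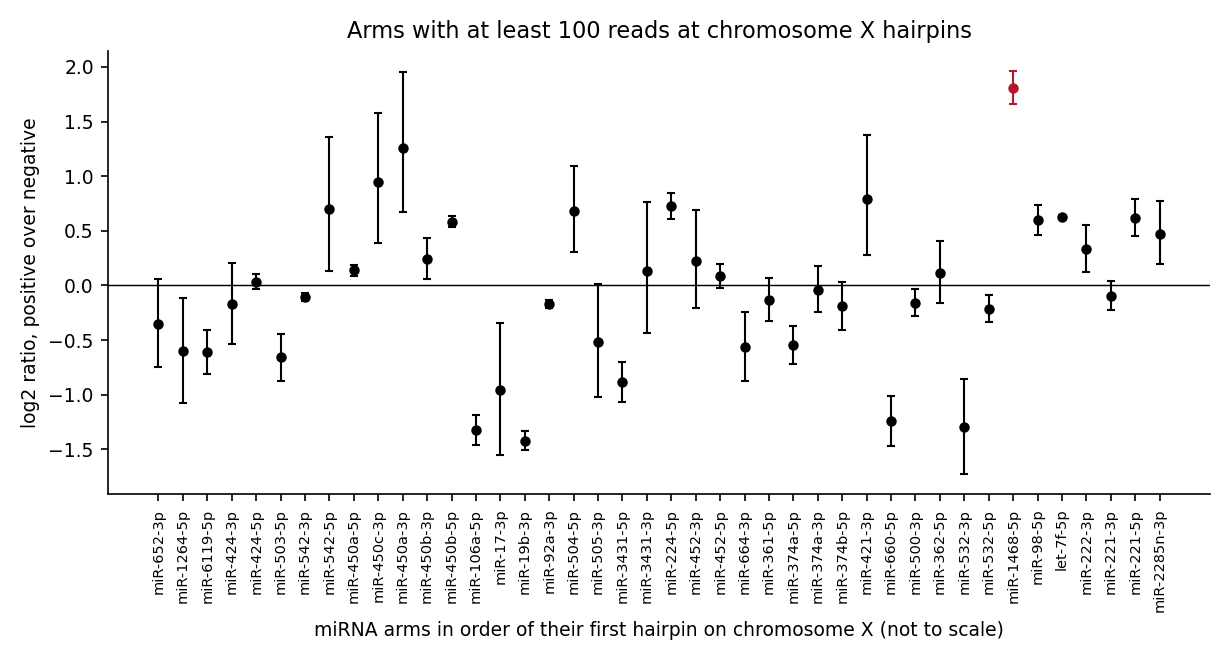
Log2 ratio, CD49f-positive to -negative (y axis), with 95% counting intervals for 42 arms in the order of their hairpins on chromosome X (x axis, not to scale), miR-1468-5p in red. Most arms lie between -1 and 1, and miR-1468-5p, at 1.81, is the highest.

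The scaling of the libraries moved the ratio but not its direction. With a total that omits the 10 most abundant miRNAs it was 2.09 (1.94 to 2.25), or 4.26-fold. TMM scaling, which trims extreme ratios before the libraries are matched, gave 2.63 (2.48 to 2.78), or 6.18-fold, when set on all 1808 arms. By that scaling 49 of 298 arms, 16.4%, were called higher. Set on the 298 arms with at least 100 reads, TMM gave 2.15 (2.00 to 2.30), with 17 arms, 5.7%, called higher. Against the median of its 20 neighbours in abundance miR-1468-5p stood 2.42 higher on the log2 scale, and against that of the X arms 1.90. These read-total and TMM scalings differ by the same amount for every arm, so the order of arms cannot change between them. In each, the arms with higher ratios were thus the same 2, miR-1290-3p and miR-716b-5p. Over the listed sequence alone miR-92-3p stood above miR-1468-5p as well. Over reads with no mismatch only miR-1290-3p did among the 242 arms compared. miR-716b-5p, at 19 such reads against 0, fell under the minimum of 100 and was not compared there.

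**Figure D5:**
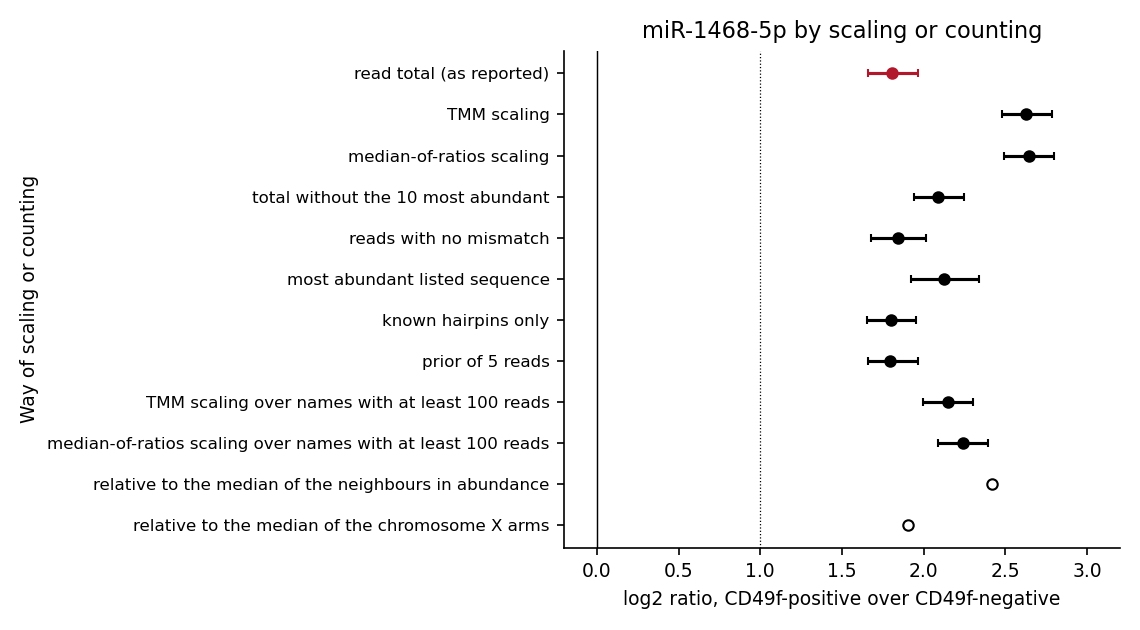
Log2 ratio of miR-1468-5p (x axis) under each way of scaling or counting (y axis), with 95% counting intervals; red is the value reported, open circles are differences from a median and have no interval, and the dotted line marks 2-fold. All values lie between 1.79 and 2.64.

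Marker miRNAs of other cell types were compared beside miR-1468-5p; over all arms 24.8% were called lower and 2.01% higher. The meiotic and post-meiotic germ cell miRNAs miR-34b, miR-34c and miR-449a to c took 2.25% of CD49f-positive and 11.4% of CD49f-negative reads together, and 7 of 7 compared arms were lower, with miR-34c-5p at a log2 ratio of -2.35. With TMM scaling over all arms 6 of the 7 were lower, against 5.03% of all arms, and miR-34b-3p went from -1.69 to -0.87. Endothelial miR-126 took 1.43% and 0.755%, and its 3p arm was at 0.92 (0.90 to 0.94), under the 2-fold rule. With TMM over all arms both of its arms were called higher, against 16.4% of all arms. The smooth muscle, myoid and fibroblast list took 23.0% and 19.5%, with miR-143-3p at 0.26 and 2 of 8 arms lower, a share near that of all arms. By the same TMM scaling 2 of these 8, miR-143-3p and miR-145-3p, were called higher and none lower. Red blood cell miRNAs took 0.296% and 0.372%, white blood cell miRNAs 0.0197% and 0.0248%, epithelial ones 0.00316% and 0.00933%, and the Sertoli marker miR-202 0.0320% and 0.0823%. The red and white blood cell lists had no called arm, and the others 1 lower arm each, miR-200b-3p and miR-202-5p, neither of them lower with TMM over all arms. With that scaling 1 of 4 white blood cell arms, miR-155-5p, was called higher. Of miRNAs known from undifferentiated rodent spermatogonia, at 1.94% and 2.93%, 3 of 9 arms were lower, also near the share over all arms. In that list miR-21-5p was at -0.45, or 0.37 with TMM over all arms. By that TMM scaling none of the 9 was lower and 2 were higher, against 16.4% of all arms. These were miR-221-5p and miR-222-3p, at 0.62 and 0.33 by read total. In these 8 lists no marker name was at 0 in either library. TMM scaling over all arms raises every log2 ratio by 0.82, and the medians of the smooth muscle, red blood, white blood and spermatogonial lists, from -0.76 to -0.21, then turn above 0. TMM set on the 298 arms with at least 100 reads raises the ratios by 0.34. Of these medians only the smooth muscle one, at 0.13, is then above 0. By it that list had 0 arms higher and 1 lower, miR-214-5p. The blood cell and spermatogonial lists had no called arm, and miR-200b-3p and miR-202-5p were lower. All 7 germ cell arms were lower, against 16.4% of all arms, and both miR-126 arms higher, against 5.7%. The part of these cell types in the miR-1468-5p difference was not tested, since 2 libraries give no spread over which levels could be compared.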

How the data were processed

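Small RNA (Illumina TruSeq kit) was sequenced from CD49f-positive and CD49f-negative cells, 1 library each, grouped by their labels. Reads were matched by the authors to miRBase hairpins of mammals, to a genome and to expressed sequences, per the file headers and a column description; aligner, miRBase release and build: not given in the sources used here. Reads per arm are expected counts as deposited, with reads of several hairpins divided between them; miR-1468 counts are whole. Copies of the listed sequence are a whole read count, hairpin GC content a percent and summed base quality a score, all as the authors deposited them without normalization.

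Reads were summed per name and arm (1808) over named entries; entries with no miRNA name (45707 and 18827 reads in CD49f-positive and -negative cells) were left out. Ratios compare shares of named reads with 0.5 reads added. Intervals (95%) are Clopper-Pearson, conditional on the summed reads, on counts rounded to whole reads. Names described were the arms nearest in abundance (3 each side), in ratio (5) and on X (3 hairpins each side), those called higher (at least 100 summed reads, 2-fold) and the top marker arms. The miRNA, lists, rules and alternatives were chosen with earlier results of these data known. edgeR 4.0.16 (TMM) and DESeq2 1.42.0 (median of ratios) served only for scaling factors (R 4.3.3); the rest was run with Python 3.11.15, pandas 2.3.3 and SciPy 1.17.1. Alternatives varied scaling, read class, hairpin support, minimum reads and fold. Calling was tested on simulated Poisson counts, which hold counting error only, so variation from PCR or between animals was not covered. The hairpin's sequence is not reported here.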

Additional observations from a re-analysis of the deposited data

How the results depend on the processing

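The miR-1468-5p log2 ratio stayed above 1 under all 11 alternatives run. It was 2.63 with TMM and 2.64 with median-of-ratios scaling over all names, 2.15 and 2.24 over names with at least 100 reads, 2.09 without the 10 most abundant miRNAs, 2.12 over the listed sequence alone and 2.42 against its neighbours' median. In the same order of the 5 scalings, 49, 50, 17, 26 and 15 arms were called higher, and 15, 15, 49, 40 and 57 lower. The neighbours' median was 0.21, 0.23, -0.27, -0.18 and -0.33, and that of the X arms 0.73, 0.74, 0.24, 0.34 and 0.19. The cause of the gap between scalings over all names and over names with at least 100 reads was not tested. Arms called higher numbered 2 at known hairpins only (by entries or by names), 2 with a minimum of 200 reads, 10 with none and 2 with a 4-fold rule, which miR-1468-5p, at 3.50-fold, did not meet. Arms called lower numbered 43 over listed sequences, 46 with a minimum of 200 reads, 196 with none and 11 with the 4-fold rule. For 26 other named arms, 130 of 228 values moved beyond the counting interval. None of the 10 called ones changed sign, but by ratio and interval 7 lost the call under at least 1 alternative (miR-9-5p, miR-940-5p, miR-450a-3p, miR-29a-5p, miR-532-3p, miR-200b-3p and miR-202-5p). Of the 16 not called, 7 changed sign under at least 1 (miR-5105-3p, miR-716a-3p, miR-7-5p, miR-532-5p, miR-451-5p, miR-142-5p and miR-21-5p). The count of lost calls leaves out the read minimum. By that minimum miR-716b-5p was not compared over reads with no mismatch, at 19 against 0. With 150 reads in all it also failed the minimum of 200. Neither it nor miR-1290-3p had reads at known hairpins, so neither could be called there. The neighbours' median at known hairpins was -0.21. The alternatives against medians, over names with at least 100 reads and over names at known hairpins were chosen after seeing the data. No alternative was run for the miR-1468-3p ratio, which has no value at 1 and 0 reads. No paired analysis was possible because each group has 1 library.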
